A study of Mus musculus with 24 samples.

Results

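The Dlx homeobox genes and the noncoding gene Dlx6os1 were followed through rRNA-depleted RNA-Seq of 2 mouse tissues. The 7 genes were taken by name from the GENCODE M1 annotation of mm9, out of 26225 annotated genes counted, by a rule that uses no measured value but was set with earlier results of these data known. The first tissue was CCE, a feeder-independent embryonic stem cell line of 129/SvEv origin, sampled on day 5 of differentiation with 0.266 µM retinoic acid after withdrawal of LIF. The second was fetal head (FH), dissected from FVB/N fetuses at 14.5 dpc, so mouse strain and tissue cannot be told apart in any comparison of them. RiboMinus-depleted RNA gave 4 CCE and 3 FH cDNA preparations, named CCE1s, CCE1h, CCE2s, CCE2h, FH1s, FH1h and FH2h, where s stands for cDNA-shearing and h for RNA-hydrolysis. Each preparation was sequenced at Vienna-IMP and at Nijmegen, and the tags of both locations were summed. The CCE preparations were technical replicates of 1 line. Both fragmentation methods were applied to the same depleted RNA, so CCE1s and CCE1h share it, as do CCE2s and CCE2h, and FH1s and FH1h. FH2h had 2 rounds of depletion, and nothing states that FH preparations came from separate animals. The p-values treat preparations of 1 depleted RNA as independent and measure the spread between these preparations, which may be technical. Another RNA of each tissue was depleted with Ribo-Zero, hydrolysed and sequenced at Vienna-CeMM as 1 library per tissue.

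Dlx proteins are homeodomain transcription factors, and their genes lie in pairs that are transcribed towards each other. Dlx1, Dlx2, Dlx5 and Dlx6 are known from the subpallium of the embryonic forebrain, where GABAergic neurons arise, and from the branchial arches that form the jaws. Dlx3 is known from epidermis, teeth and placenta, and Dlx4 from the branchial arches and placenta. Dlx6os1, also called Evf2, is a noncoding RNA transcribed from the strand opposite to Dlx6, and it is known to act on the neighbouring Dlx genes.

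The files place Dlx1 on the plus strand at chr2:71366170-71372038 and Dlx2 on the minus strand at chr2:71381466-71384811. Dlx6 is on the plus strand at chr6:6813334-6818568 and Dlx5 on the minus strand at chr6:6827805-6832085. Dlx3 is on the plus strand at chr11:94981403-94986610 and Dlx4 on the minus strand at chr11:95001770-95007577. Dlx6os1 is on the minus strand at chr6:6770189-6819533, with 4 exons and an intron that holds the whole of Dlx6. All of these positions are in mm9. The tags carried no strand information, with 49.3% of the FH RiboMinus tags in member exons on the plus strand, so transcripts of opposite strands in the same bases could not be separated. The exons of Dlx6os1 and Dlx6 do not share bases, whereas 335 bases of the antisense gene Dlx1as lie in an exon of Dlx1.

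The 6 homeobox genes are close relatives, and the bases below show how alike their coding sequences are where they match best. The stretch was picked as the 30 bases most alike over the 6 genes. Whether it crosses a splice junction in Dlx1 was not determined. In Dlx2, Dlx3, Dlx4, Dlx5 and Dlx6 it crosses one, and tags across junctions were not aligned. It therefore does not show how far 36 nt tags could tell the genes apart. Each line is a stretch of 30 bases of the homeobox, read from the annotated coding transcript, with capitals at the bases that differ from Dlx5.
Dlx1: caGacGcaggtCaaGatAtggttCcagaac
Dlx2: caaacTcaggtCaaaatctggttCcagaac
Dlx3: caaacacaggtgaaaatctggttCcagaac
Dlx4: caaacCcaggtAaaGatctggtttcagaac
Dlx5: caaacacaggtgaaaatctggtttcagaac
Dlx6: caaacacaggtgaaGatAtggtttcagaaT
These stretches start at base 505 of the coding sequence in Dlx1, 586 in Dlx2, 508 in Dlx3, 469 in Dlx4, 532 in Dlx5 and 634 in Dlx6. Dlx3 differed from Dlx5 at 1 of the 30 bases and Dlx1 at 6. Over the whole exons the members were more distinct. Windows of 36 bases that came within 2 mismatches of another member numbered 7 of 5326 in Dlx1, 8 of 2749 in Dlx2, 7 of 2532 in Dlx3 and 17 of 2270 in Dlx6. There were 0 such windows of 3120 in Dlx4, of 1318 in Dlx5 and of 4732 in Dlx6os1, so tags shared between members could affect only a small part of each gene.

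Dlx homeodomains are known to bind DNA with a TAAT core, and the palindrome TAATTA was searched in RefSeq promoters of 250 bases before to 50 after each start (GRCm38.p6). It was present in 1738 of 32851 promoters (5.29%). Of the 7 members, 3 were matched by symbol, Dlx1, Dlx2 and Dlx6os1. The promoters of Dlx1 and Dlx2 held 0 matches, and both annotated starts of Dlx6os1 held at least 1. Each line gives 30 bases of the minus strand, 5′ to 3′, with the motif in capitals.
Dlx6os1, start 1, first match, chr6:6869646-6869675: gaaaattacaggTAATTAtctttgacggta
Dlx6os1, start 1, second match, chr6:6869590-6869619: gaaaaattactcTAATTAtggctgcattta
Dlx6os1, start 2, chr6:6861840-6861869: taaattatcctcTAATTAtacaccagtgtc
The motifs begin at -130 and -74 relative to the first start and at -174 relative to the second. A match of letters describes the sequence only, and no binding was measured.

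The 14 RiboMinus libraries held 920424 to 2473448 unique tags each, and the Ribo-Zero libraries 28708715 (CCE) and 48426051 (FH). Markers of the labelled tissues were present. Of 12 tested neuronal genes, 11 were higher in FH, beside 20.3% of all genes tested. Through FH alone, 9 of the 12 passed the filter for testing, a mean over 3 RPKM in at least 1 tissue. The pooled RiboMinus tags of all 13 genes of that list summed to 684.6 RPKM in FH and 49.1 in CCE. FH also held markers of lens (Cryaa, 74.7 ± 4.1 RPKM, SD, n = 3), epidermis (Krt5, 89.1 ± 15.1), muscle (Myog, 48.5 ± 1.6) and cartilage (Col2a1, 81.0 ± 4.4). Krt5 and Myog had 0 tags in the CCE preparations. Of 17 tested primitive endoderm genes, 13 were lower in FH, beside 34.0% of all genes tested, and 1, Ttr, was higher. Pou5f1, which marks undifferentiated cells, stood at 17.9 ± 2.5 RPKM (n = 4) in CCE and at 0 in FH. In bulk RNA, fewer cells of a type and less RNA per cell cannot be told apart, and this holds for every level below.

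Levels are given as RPKM, the tags with their midpoint in merged exons per kb of exon and per 1000000 unique tags. The comparison of FH with CCE used limma on log2(RPKM + 1) for the 10857 genes with a mean over 3 RPKM in at least 1 tissue. With an adjusted p of 0.05 as the threshold, Dlx1, Dlx2, Dlx5, Dlx6 and Dlx6os1 were tested and each was higher in FH. Of all genes tested, 54.3% were called, 20.3% as higher and 34.0% as lower in FH. These 5 members passed the filter by their level in FH alone, and Dlx3 and Dlx4 lay under it in both tissues. With no filter all 7 were tested, and the same 5 were higher and Dlx3 and Dlx4 were not called, beside 39.0% called, 19.6% as higher and 19.5% as lower, of 20478 genes. A difference on this scale understates the change of a gene that is low in 1 tissue, and the pooled ratio of tags is given beside it, with an exact 95% interval that covers counting error only.

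On the log2(RPKM + 1) scale Dlx1 showed the largest difference of the 5 tested members, whereas the pooled ratio of tags was larger for Dlx6os1. It stood at 0.310, 0.186, 0.411 and 0.275 RPKM in CCE1s, CCE1h, CCE2s and CCE2h, and at 19.0, 14.7 and 16.7 RPKM in FH1s, FH1h and FH2h. The groups did not overlap, as was the case for 20.7% of all genes tested in this direction, and no FH preparation came near the CCE range. The log2 difference was 3.78 (SE 0.16, limma adjusted p = 7.1e-07), and the pooled tags, 878 in FH and 20 in CCE, gave a ratio of 57.7 (37.1 to 95.0).

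Its partner Dlx2, which acts with Dlx1 in the ventricular and subventricular zones of the subpallium, overlapped Dlx1 in FH over merged exons in RiboMinus and was not as low in CCE. It stood at 1.64, 1.49, 2.20 and 1.25 RPKM in the CCE preparations, and at 24.3, 12.0 and 14.9 RPKM in FH1s, FH1h and FH2h. The sheared FH preparation was the highest, as it was for Dlx1, Dlx3, Dlx4 and Dlx5, and all FH values of Dlx2 were above all its CCE values. The log2 difference was 2.73 (SE 0.25, limma adjusted p = 3.2e-05), with a pooled ratio of 9.69 (7.38 to 12.9) from 442 and 60 tags.

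Dlx5 and Dlx6, known for a joint role in the lower jaw and in maturing GABAergic neurons, were lower than the first pair in FH. Dlx5 stood at 1.18, 1.41, 1.56 and 0.835 RPKM in CCE and at 7.07, 5.87 and 5.20 RPKM in FH1s, FH1h and FH2h. Its groups did not overlap, and its log2 difference was 1.65 (SE 0.18, limma adjusted p = 9.3e-05), with a pooled ratio of 4.69 (2.92 to 7.80) from 82 and 23 tags. Dlx6 stood at 0.705, 0.633, 0.156 and 0.25 RPKM in CCE, where it rested on 1 to 6 tags per preparation. In FH it had 3.79, 3.40 and 3.90 RPKM, a narrower spread than that of any other tested member. Its log2 difference was 1.73 (SE 0.18, limma adjusted p = 7.1e-05), with a pooled ratio of 8.17 (4.62 to 15.6).

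Dlx6os1 was all but missing from CCE, with 3, 1, 0 and 0 tags in CCE1s, CCE1h, CCE2s and CCE2h, and 0.064 ± 0.098 RPKM (SD, n = 4). In FH it stood at 2.72, 9.62 and 8.93 RPKM in FH1s, FH1h and FH2h, so that the sheared preparation was far below the hydrolysed ones. All 3 were above the CCE range. The log2 difference was 2.79 (SE 0.34, limma adjusted p = 1.7e-04), and 387 against 4 tags gave a pooled ratio of 127.2 (49.3 to 469.2), wide because of the few CCE tags.

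**Figure D1:**
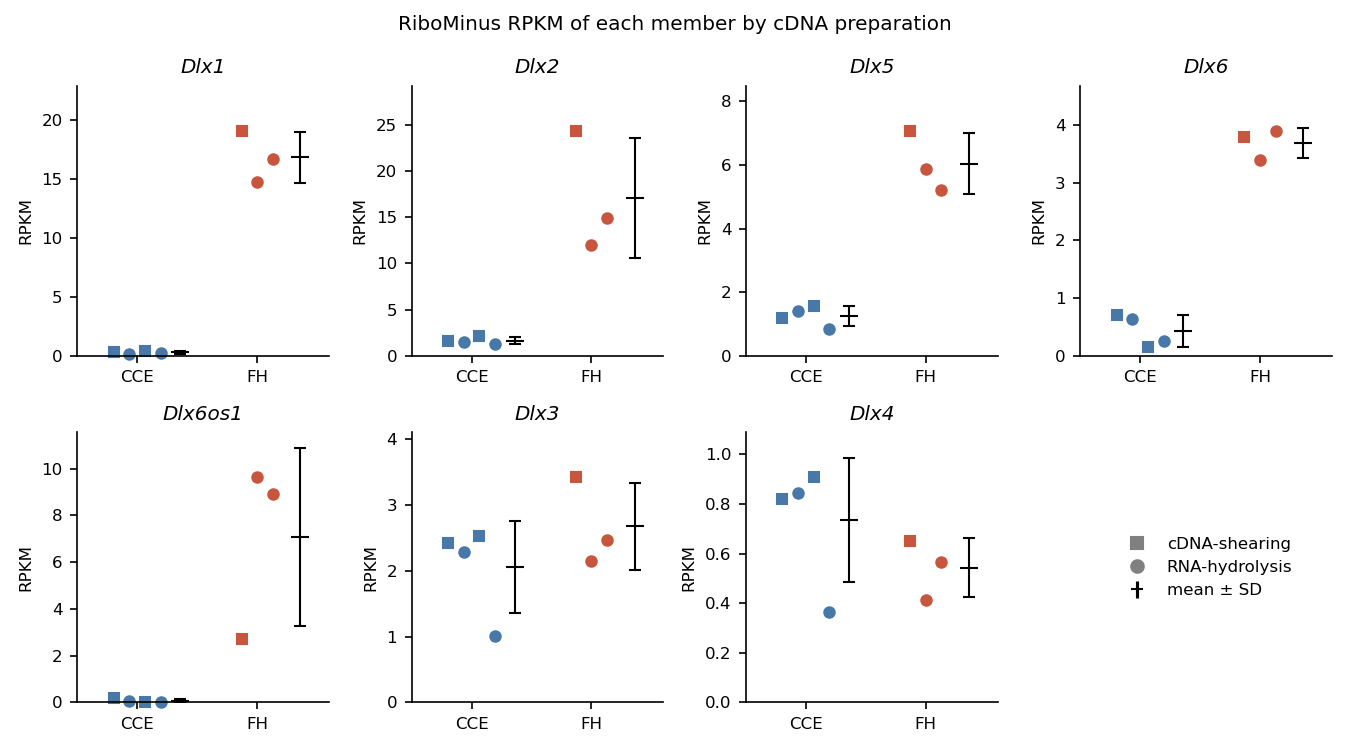
RPKM of each gene (vertical axes, 1 scale per panel) in the 4 CCE and 3 FH RiboMinus preparations, squares for cDNA-shearing and circles for RNA-hydrolysis, with the mean and SD to the right of each group. Dlx1, Dlx2, Dlx5, Dlx6 and Dlx6os1 do not overlap between tissues, and Dlx3 and Dlx4 do. Among FH preparations the sheared one is the highest for Dlx1, Dlx2, Dlx3, Dlx4 and Dlx5 and the lowest for Dlx6os1.

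The remaining pair did not separate the tissues. Dlx3 stood at 2.41, 2.28, 2.52 and 1.01 RPKM in CCE and at 3.41, 2.14 and 2.46 RPKM in FH, and these ranges overlapped. With no filter on low genes, its log2 difference was 0.28 (SE 0.25, limma adjusted p = 0.41), and 66 FH against 70 CCE tags gave a pooled ratio of 1.24 (0.872 to 1.76). Dlx4 was the lowest of the homeobox genes in FH, with 4, 5 and 8 tags in FH1s, FH1h and FH2h and 0.543 ± 0.120 RPKM. In CCE it had 0.735 ± 0.249 RPKM from 4 to 11 tags a preparation, and these ranges overlapped as well. Its log2 difference without a filter was -0.16 (SE 0.15, limma adjusted p = 0.45), with a pooled ratio of 0.721 (0.374 to 1.34). The ratio seen for Dlx5 lies above the counting interval of either gene, and a difference within those intervals was not detectable at this depth. The first exon of Dlx4 also overlaps the antisense gene A730090H04Rik, whose tags could not be separated from those of Dlx4 there.

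The sequencing locations gave the same directions for the 5 members, and single libraries did not overlap between the tissues for any of them, as was the case for 14.3% of all genes tested in this direction. Over the 8 CCE and 6 FH libraries, Dlx1 ranged from 0.128 to 0.531 RPKM in CCE and from 13.7 to 20.7 in FH, and Dlx2 from 1.09 to 2.68 and from 8.77 to 26.3. Dlx5 ranged from 0 to 1.85 and from 4.28 to 7.64, Dlx6 from 0 to 0.873 and from 2.61 to 5.03, and Dlx6os1 from 0 to 0.319 and from 2.01 to 11.3. The log2 differences at Vienna-IMP and at Nijmegen were 3.87 and 3.67 for Dlx1, 2.87 and 2.47 for Dlx2, 1.94 and 1.44 for Dlx5, 1.39 and 2.10 for Dlx6, and 2.83 and 2.71 for Dlx6os1. The limma adjusted p was 0.00203 or less in each of these. For Dlx6 the larger difference was at Nijmegen and for the other 4 at Vienna-IMP, so neither location was higher throughout. Dlx3, at 0.40 and 0.16, passed the filter at Vienna-IMP alone and was not called there (limma adjusted p = 0.36). Dlx4, at -0.01 and -0.35, was under the filter at both locations and was not tested.

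By mean RPKM in FH the order was Dlx2 (17.1 ± 6.4, SD, n = 3), Dlx1 (16.8 ± 2.2), Dlx6os1 (7.09 ± 3.80), Dlx5 (6.05 ± 0.95), Dlx6 (3.70 ± 0.26), Dlx3 (2.67 ± 0.66) and Dlx4 (0.543 ± 0.120). Dlx2 and Dlx1 overlapped, with Dlx2 above Dlx1 in 1 of 3 preparations. Dlx6os1 and Dlx5 overlapped too, with Dlx6os1 below Dlx5 in the sheared preparation only. The ranges of Dlx1 and Dlx6os1, of Dlx5 and Dlx6 and of Dlx3 and Dlx4 did not touch, and Dlx6 was above Dlx3 in 3 of 3 preparations although their ranges met. An exact two-sided sign-flip test over 3 preparations cannot go below p = 0.25, and it gave that value for these 4 pairs of neighbours. Counted over coding bases alone, an alternative chosen after the data were seen, the difference Dlx2 minus Dlx1 was -1.15 on the log2 scale, so Dlx1 was then the higher.

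The spans between the genes of a pair were counted apart from annotated exons, since they hold known enhancers and parts of the noncoding genes. The span from Dlx1 to Dlx2 (chr2:71372039-71381465, with 9115 nt outside exons) held 0, 1, 1 and 1 tags in the CCE preparations and 15, 24 and 52 in FH1s, FH1h and FH2h. That is 0.025 ± 0.018 CPM per kb (tags per 1000000 unique tags and per kb) in CCE (SD, n = 4) and 0.967 ± 0.316 in FH (n = 3), and the groups did not overlap. The span from Dlx6 to Dlx5 (chr6:6818569-6827804, 9011 nt outside exons) held 0, 1, 0 and 1 tags in CCE and 8, 27 and 30 in FH, or 0.015 ± 0.018 against 0.682 ± 0.185 CPM per kb. The longer span from Dlx3 to Dlx4 (chr11:94986611-95001769, 15159 nt, no annotated gene) held 0, 2, 1 and 3 tags in CCE and 3, 3 and 5 in FH, with overlapping ranges. The exact two-sided permutation test over 4 and 3 preparations gave p = 0.0571 for the first and the second span, the smallest p it allows, and p = 0.114 for the third (0.0857, 0.0857 and 0.114 adjusted over the 3 spans).

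Tags in the first span were unevenly placed. Where the span lies within the body of Dlx1as, whose exons were left out, FH RiboMinus held 69 tags over 3598 nt, and the rest of the span held 22 tags over 5517 nt. In FH Ribo-Zero these numbers were 268 and 40. Dlx1as itself, a noncoding gene antisense to Dlx1, stood at 8.51 ± 1.64 RPKM in FH and 0.135 ± 0.093 in CCE, but 128 of its 140 FH tags lay in the 335 bases it shares with Dlx1. Its other exon bases, 1295 nt, held 12 FH RiboMinus and 85 FH Ribo-Zero tags. In the Dlx6 to Dlx5 span, 5 of the 65 FH tags fell in the 740 nt that belong to the first intron of Dlx6os1. The other 60 fell in the 8271 nt between its annotated start and the 3′ end of Dlx5, which is on the same strand. The same regions in the FH Ribo-Zero library held 51 and 165 tags. The tags of this span therefore were not limited to the annotated body of Dlx6os1 in either library.

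**Figure D2:**
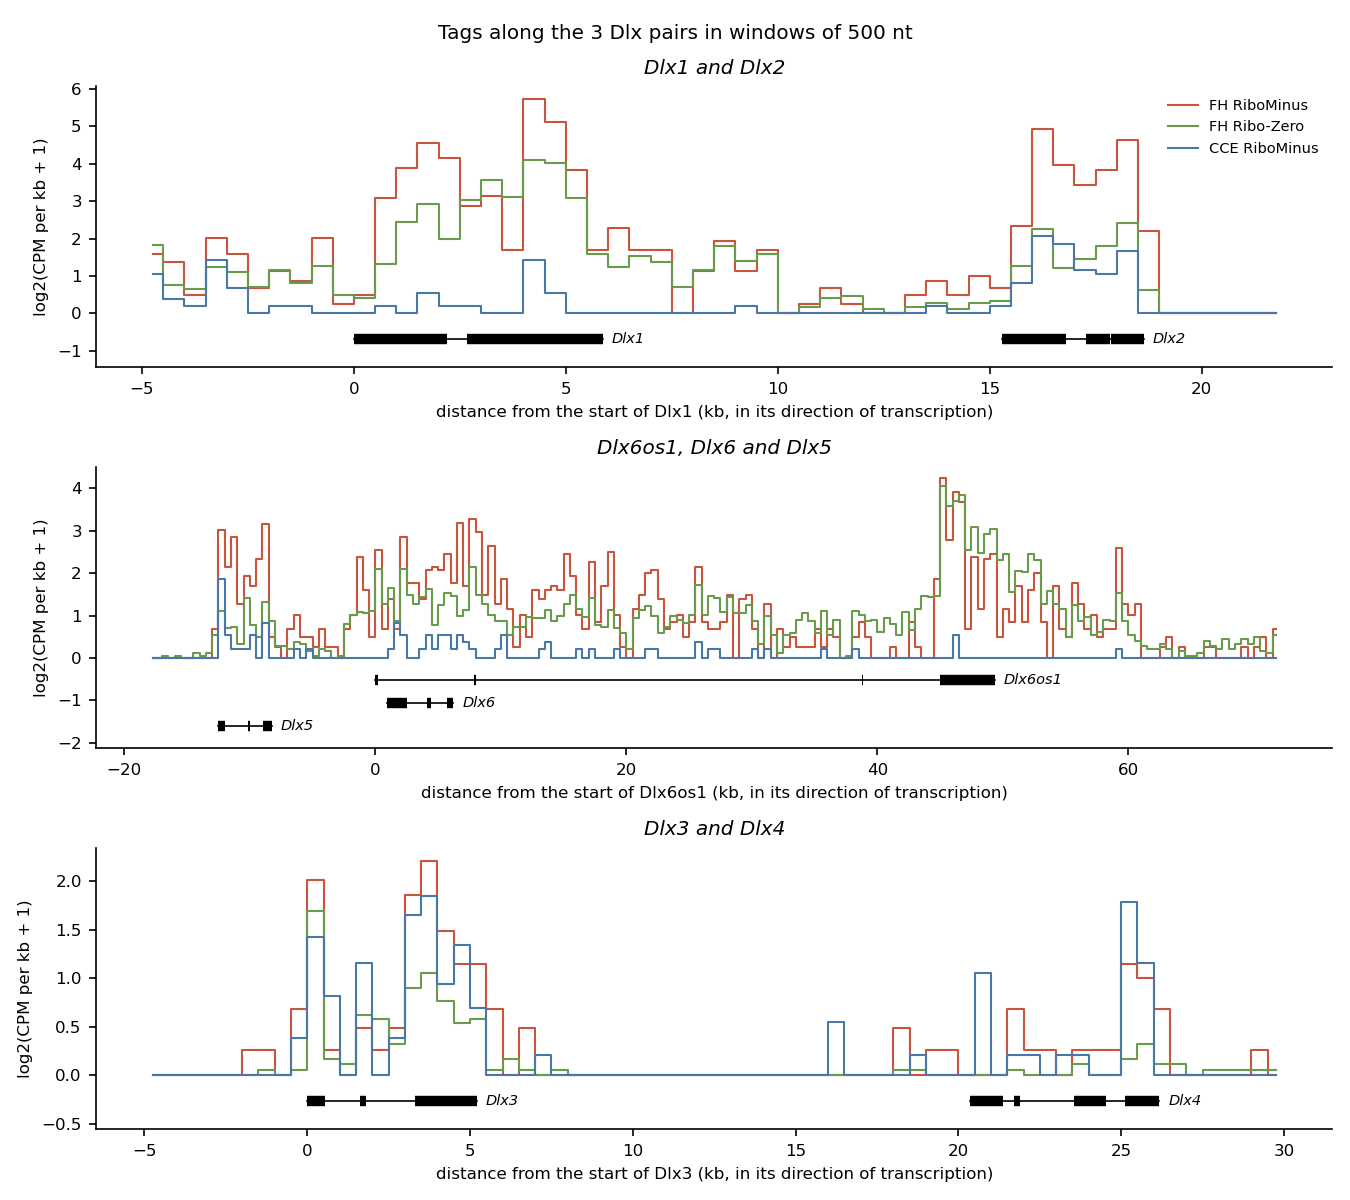
log2(CPM per kb + 1) in windows of 500 nt (vertical axes) against distance in kb from the start of Dlx1, Dlx6os1 and Dlx3, for FH RiboMinus, FH Ribo-Zero and CCE RiboMinus tags, with exons drawn as thick bars. FH tags cover the body of Dlx6os1 from end to end and run past its last exon, and CCE RiboMinus reaches or passes FH RiboMinus in 10 of the 20 windows with a CCE tag around Dlx3 and Dlx4, 1 of 39 around Dlx6os1 and 0 of 22 around Dlx1 and Dlx2.

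Along Dlx6os1, FH tags were spread over nearly the whole body, with a tag in 49 of 50 windows of 1 kb in RiboMinus and in 50 of 50 in Ribo-Zero. In CCE a tag lay in 22 of these windows in RiboMinus and in 15 in Ribo-Zero. The windows include those over Dlx6, whose own tags are counted in them. The last exon, of 4379 nt, held 322 of the 387 exon tags in FH RiboMinus and 1970 of 2102 in FH Ribo-Zero. The second exon, of 124 nt, was the densest part in FH RiboMinus at 34.1 CPM per kb (24.6 to 46.1, exact Poisson interval), against 7.41 (6.62 to 8.26) in the last exon. The third exon, of 144 nt, held 2 tags there and 7 in Ribo-Zero. Introns outside Dlx6 held 489 FH tags, and their density was 0.203 ± 0.10 of that of the exons (SD, n = 3).

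The other members differed in how much of their signal lay in introns outside merged exons. Intron to exon density in FH was 0.603 ± 0.178 for Dlx2, 0.576 ± 0.046 for Dlx5 and 0.582 ± 0.294 for Dlx6, and 0.049 ± 0.045 for Dlx1 and 0.077 ± 0.019 for Dlx3. In FH Ribo-Zero these 5 genes lay closer together, at 0.552 for Dlx2, 0.317 for Dlx5, 0.621 for Dlx6, 0.212 for Dlx1 and 0.164 for Dlx3. For Dlx5, 95 FH tags lay in introns and 82 in exons. The introns and exons of Dlx6 lie inside an intron of Dlx6os1, so their tags could come from either strand. The introns of Dlx1 (473 nt) and Dlx2 (492 nt) are short, and 4 and 47 FH tags stood behind their values. Merged exons can also hold bases that are intronic in 1 transcript. Those of Dlx1 span 5396 nt, against 765, 1881 and 1465 nt of coding, 5′ and 3′ untranslated bases in its annotated transcript 001. Its ratio therefore covers only part of the introns of that transcript. Within the exons of Dlx1, the coding bases held 49.9 CPM per kb in FH RiboMinus and the 5′ untranslated region 7.71, and in Ribo-Zero these values were 12.0 and 2.69. The 3′ untranslated region of Dlx1 lay between them at 19.6 and 9.05. It includes the 335 bases shared with Dlx1as, whose tags could come from either strand. Those bases held 128 of its 285 FH RiboMinus tags and 288 of its 642 FH Ribo-Zero tags. In Dlx6 the coding bases were also denser than the 3′ untranslated region, with 7.24 against 1.26 CPM per kb in RiboMinus and 3.24 against 1.52 in Ribo-Zero. Dlx4 held 0 FH tags over the 771 nt of its 3′ untranslated region in either depletion, and 10 of its 17 FH RiboMinus tags were in the 5′ untranslated region.

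The Ribo-Zero libraries, from another RNA of each tissue, gave the same direction for the 5 members. There was 1 library per tissue and so no replicate check. Dlx1 had 1937 tags in FH and 19 in CCE, a ratio of 60.4 (38.6 to 100.6). Dlx2 had 347 and 35 tags and a ratio of 5.88 (4.14 to 8.58). Dlx6 had 254 and 7 tags and a ratio of 21.5 (10.3 to 54.0). Dlx6os1 had 2102 and 3 tags, with a ratio of 415.4 (141.9 to 2016). With each tag position counted once, an alternative chosen after the data were seen, the ratios were 39.0 for Dlx1, 4.09 for Dlx2, 17.4 for Dlx6 and 220.2 for Dlx6os1.

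Dlx5 was the only member without a tag in CCE Ribo-Zero. Set at 3 tags, the limit that a count of 0 allows in that library was 0.073 RPKM, whereas the 4 CCE RiboMinus preparations had 0.835 to 1.56 RPKM. Of the 23 CCE RiboMinus tags of Dlx5, 17 lay in its first exon. With 118 tags in FH Ribo-Zero, the gene was at least 23.3-fold higher in FH than in CCE against that limit of 3 tags, or at least 16.7-fold with each position counted once. Dlx3 had 150 and 61 tags, a ratio of 1.46 (1.08 to 2.00) that was 1.09 with each position counted once, and Dlx4 had 11 tags in each library, a ratio of 0.593 (0.233 to 1.51). The span from Dlx1 to Dlx2 held 308 FH tags and 1 CCE tag in Ribo-Zero, and the span from Dlx6 to Dlx5 held 216 and 2. The span from Dlx3 to Dlx4 held 11 FH and 17 CCE tags, a ratio of 0.384 (0.162 to 0.868), whereas RiboMinus gave 2.41 (0.817 to 7.94) from 11 and 6 tags.

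**Figure D3:**
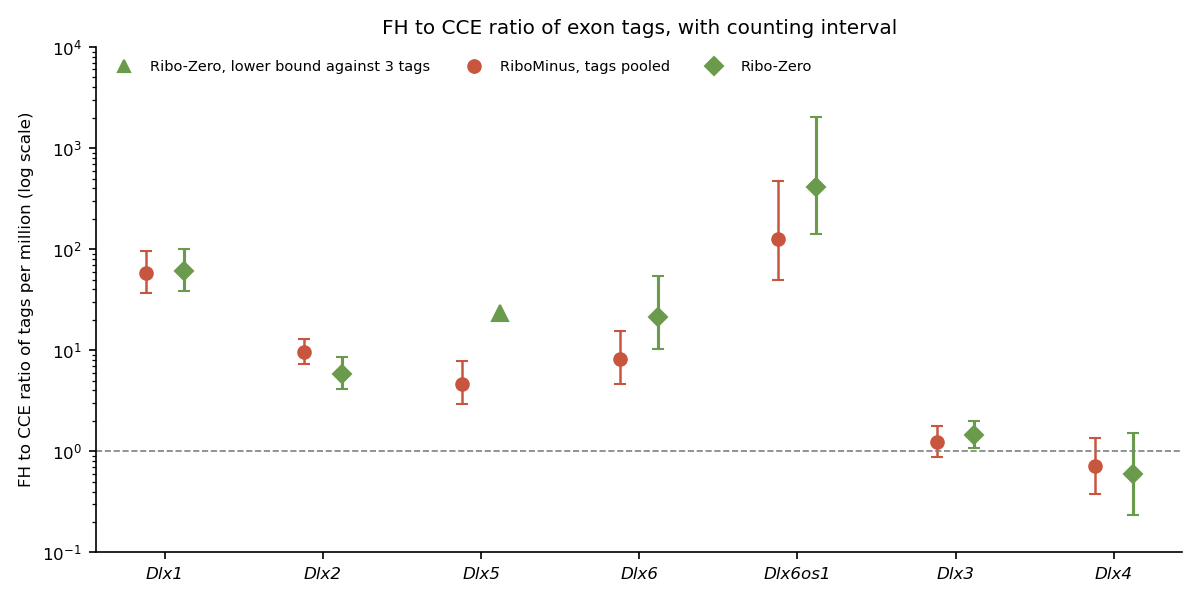
FH to CCE ratio of exon tags per 1000000 unique tags (log axis) for each gene, circles for pooled RiboMinus tags and diamonds for Ribo-Zero, with 95% counting intervals and a triangle for the lower bound of Dlx5 against 3 tags. Ratios for Dlx1, Dlx2, Dlx5, Dlx6 and Dlx6os1 lie above 4 in both depletions, and the intervals of Dlx4 span 1 in both.

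Levels within FH depended on the protocol, and the members did not move together. From RiboMinus to Ribo-Zero the tags per 1000000 of Dlx2 changed by a factor of 0.161 (0.139 to 0.186), of Dlx5 by 0.295 (0.221 to 0.396), of Dlx1 by 0.452 (0.417 to 0.490), of Dlx3 by 0.466 (0.347 to 0.632), of Dlx6 by 0.598 (0.467 to 0.772) and of Dlx4 by 0.133 (0.056 to 0.300). Dlx6os1 was the only member whose interval did not lie below 1, with a factor of 1.11 (0.998 to 1.24). Most genes fell between these libraries, with 74.8% of 9418 genes at a log2 ratio of RPKM + 1 below 0 and a median of -0.60, so a fall in 6 of 7 members was near the general share. In the FH Ribo-Zero library the order of levels was thus Dlx6os1 (8.91 RPKM), Dlx1 (7.41), Dlx2 (2.51), Dlx6 (2.21), Dlx5 (1.71), Dlx3 (1.17) and Dlx4 (0.070). Protocol, RNA sample, tag length and sequencing location changed together here and cannot be told apart. Mitochondrial tags were removed from RiboMinus but stayed in the scale of FH Ribo-Zero, at 2200005 of 48426051 tags. This lowers every Ribo-Zero factor above, that of Dlx6os1 included, whose interval ends close to 1.

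Over all genes, this ratio moved with exon GC content. In the members the GC content was 58.9% in Dlx2, 56.4% in Dlx3, 55.1% in Dlx4, 54.7% in Dlx5, 54.2% in Dlx1, 49.6% in Dlx6 and 39.6% in Dlx6os1. The members did not follow its order throughout on the log2 scale of RPKM + 1. There Dlx3 (-0.70) was above Dlx5 (-1.33) and Dlx1 (-1.05) at a higher GC content, but below Dlx4 (-0.51). The added 1 makes the fall of Dlx4 look small, since its FH level was 0.525 RPKM in RiboMinus and 0.070 in Ribo-Zero. By tags the factor of Dlx4, 0.133, was below that of Dlx3, 0.466, and their counting intervals did not overlap. Dlx3 and Dlx4 were also under the mean of 3 RPKM in FH that defines the 9418 genes below. The counting interval of the factor of Dlx3 overlapped those of Dlx5 and Dlx1. Over the 9418 genes with a mean over 3 RPKM in FH, the median log2 ratio of Ribo-Zero to RiboMinus was -0.03 for exons under 45% GC and -1.36 at 60% and over. Beside genes within 2 points of its own GC content, Dlx2 was lower than most, at -2.24 against a median of -1.21, with 5.93% of 1451 such genes below it. Dlx6os1 at 0.14 was near the median of its like, 0.10. The part of GC content in the ratios of the members was not tested.

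Between the fragmentation methods the ratio ran the other way with GC content, with a median log2 ratio of sheared to hydrolysed FH tags of -0.65 under 45% GC and 0.84 at 60% and over. In sheared against hydrolysed FH tags, Dlx6os1 had 0.294 times the tags per 1000000 (0.188 to 0.441) and Dlx2 1.79 times (1.45 to 2.21). The low value of Dlx6os1 was found at both locations, with 16 sheared against 116 hydrolysed FH1 tags at Vienna-IMP and 9 against 58 at Nijmegen. Its log2 ratio of -1.46 was below all but 6.51% of 507 genes of like GC content, whose median was -0.72. Whether the difference between tissues changed with fragmentation was tested by an interaction in limma. For Dlx6os1 the log2 difference was 3.32 in hydrolysed and 1.76 in sheared preparations, which differed by -1.57 (SE 0.24, unadjusted p = 2.6e-04), but the limma adjusted p was 0.13. The sheared FH arm of this fit is the single preparation FH1s, which is assumed to vary like the other preparations. Only 5 of 10857 genes (0.0461%) were called, and the other 4 tested members had adjusted p-values of 0.71 to 0.98.

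**Figure D4:**
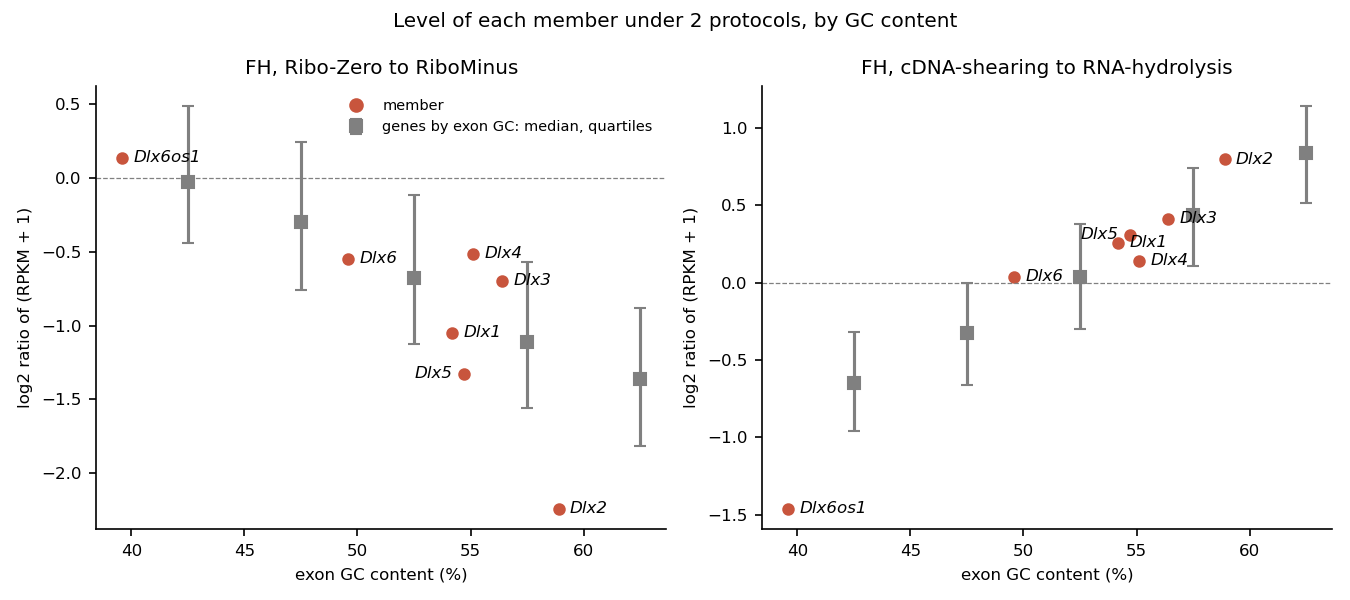
log2 ratio of RPKM + 1 in FH (vertical axes) against exon GC content, for Ribo-Zero to RiboMinus on the left and cDNA-shearing to RNA-hydrolysis on the right, with grey squares and bars for the median and quartiles of genes in GC classes. Dlx2 lies at -2.24 on the left, below the quartiles of its neighbouring classes, and Dlx6os1 at -1.46 on the right, below the quartiles of the class under 45%.

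Gene lists around the Dlx genes were read by their counts, beside 20.3% higher and 34.0% lower among all genes tested and a median log2 difference of -0.33. Like the 5 members, many list genes passed the filter by their level in FH alone, 19 of 29 tested genes in the subpallial list, 15 of 16 in the cortical, 9 of 12 in the neuronal, 5 of 8 in the osteoblast and 7 of 10 in the epidermal list, against 1699 of 10857 genes in all. A higher call of such a gene is largely set by the filter. With no filter, where 19.6% of 20478 genes were higher, the higher genes numbered 27 of 34, 17 of 18, 12 of 13, 9 of 12 and 13 of 18 in these lists. In the subpallial GABAergic list, 23 of 29 tested genes were higher in FH and 2 were lower, with a median of 1.98. Sst, a neuropeptide of interneurons, was at 27.1 ± 2.1 RPKM in FH and 0.503 ± 0.356 in CCE, a log2 difference of 4.26. Slc32a1, the vesicular GABA transporter, differed by 3.66, and the neuropeptide gene Npy by 3.61. Foxp1 and Nrp1, a transcription factor and a guidance receptor that many other tissues use, were lower in FH by -0.71 and -0.94.

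The cortical glutamatergic list holds genes known from the pallium, with 15 of 16 tested genes higher in FH, 0 lower and a median of 2.88. Its proneural gene Neurog2 differed by 5.72, Neurod2 by 5.06 and Neurod6, with 0 tags in CCE, by 4.67.

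In the branchial arch list the directions were mixed, with 8 of 21 tested genes higher in FH and 9 lower. All 8 higher genes passed the filter through FH alone. Of the lower genes, 4 passed it through CCE alone, Hand2 and Edn1 among them. Of the 9 genes over it in both tissues, 0 were higher and 5 lower. With no filter 10 of 24 were higher and 8 lower, and the median changed sign from -0.45 to 0.19. Hand2, a target of endothelin signals in the lower jaw, was at 25.8 ± 2.3 RPKM in CCE and 2.12 ± 0.65 in FH, a log2 difference of -3.11. Bmp4 (-2.50) and the ligand Edn1 (-2.26) were lower in FH as well. The mesenchymal homeobox genes Prrx1 (2.87) and Alx4 (2.52) and the jaw gene Gsc (2.29) were higher. The osteoblast and tooth matrix list holds genes known to lie downstream of Dlx5 and Dlx3 in bone and teeth. Of its 8 tested genes, 7 were higher, among them Col1a2 (4.22), Ibsp (3.95) and Col1a1 (3.25). Its tooth genes Amelx, Enam and Dspp had at most 0.014 RPKM in either tissue and were not tested. The count therefore covers none of these tooth genes. Of the epidermal and placode genes, 9 of 10 were higher in FH, with Krt5 at 6.48, Krt1 at 4.68 and Krt10 at 4.43, and Perp was lower by -1.67. Dlx3, known from the same epithelia, lay under the filter. With no filter Dlx3 was not called, whereas 13 of the 18 genes of this list were higher and 1 was lower.

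Of 6 tested trophoblast genes, 3 were lower in FH and 2 were higher, and all 5 passed the filter only through the tissue where they were high. With no filter, 5 of 10 were lower and 3 higher. Esx1 (-2.78) and Hand1 (-1.98), both at 0 in FH, and Tead4 (-1.13) were lower, and Eomes (1.65) and Tcfap2c (1.24), which brain and skin also use, were higher. In the primitive endoderm list 5 of 17 tested genes passed the filter through CCE alone, and 8 of the 11 over it in both tissues were lower. With no filter 15 of 20 were lower and 1 higher, beside 19.5% lower of all genes. The keratins Krt18 (-5.53) and Krt8 (-5.28) and the transcription factor Gata6 (-4.15) had the most negative differences in this list. Ttr, which choroid plexus also makes, was higher by 3.82. The neuronal list was led by Dcx (4.86), Ina (4.60) and Elavl3 (4.43).

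Among Msx, Nkx and other relatives in the NK-like homeobox class, 10 of 16 tested genes were higher in FH and 3 were lower, and all 13 passed the filter only through the tissue where they were high. With no filter, 18 of 30 were higher and 4 lower. Barhl1 (2.39) and Nkx2-1 (2.34) are counted there, as is the cortical gene Emx1 (3.68), whereas Msx2 (-2.02), Vax2 (-1.88) and Hlx (-1.24) were lower. Of the partners of Evf2 and of Dlx proteins, 1 of 7 tested genes was higher and 2 were lower, a share near that of all genes. The chromatin subunit Smarcc2 differed by 1.05, Grip1 by -0.50 and Msx2, a homeodomain partner of Dlx proteins, by -2.02. Some genes, Msx2 among them, stand in more than 1 list, so the lists are not independent.

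**Figure D5:**
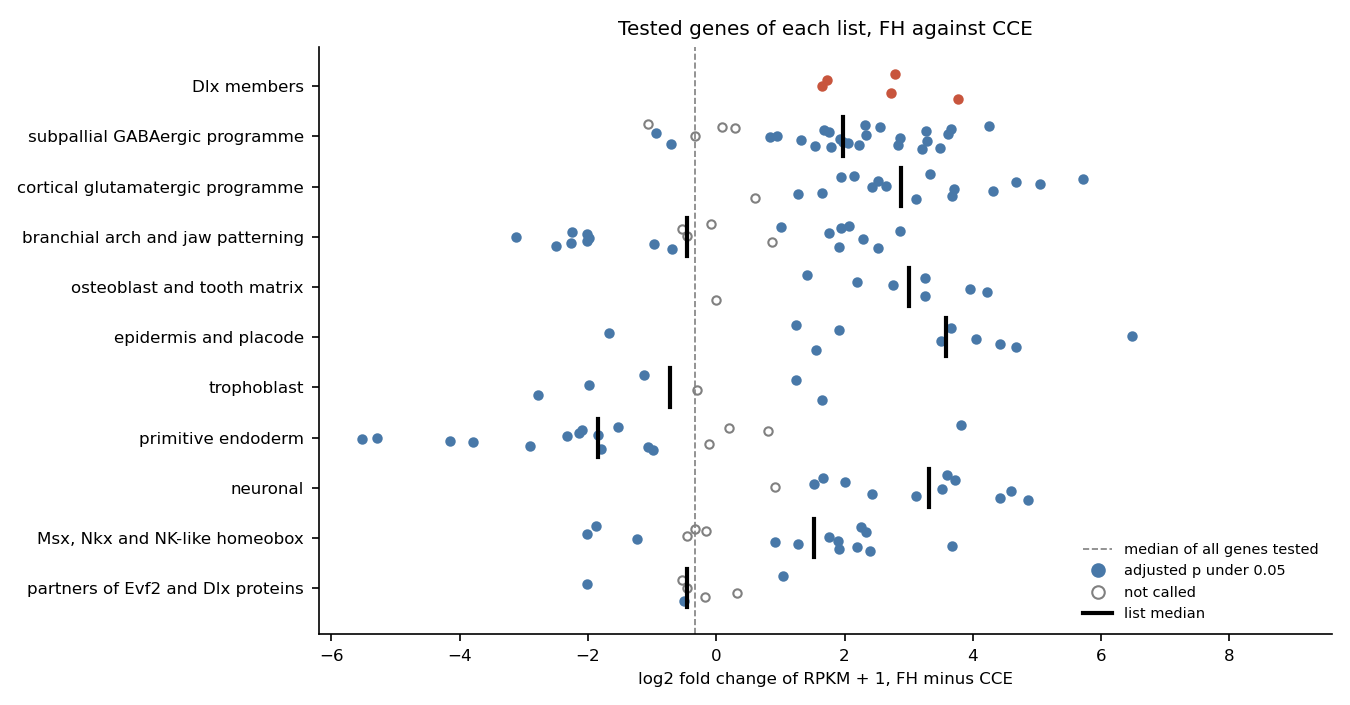
log2 difference of RPKM + 1, FH minus CCE (horizontal axis), for the tested genes of each list, filled circles where the adjusted p was under 0.05, open circles otherwise, bars for list medians and a dashed line for the median of all genes tested (-0.33). The 5 tested Dlx members lie between 1.65 and 3.78, and the subpallial and cortical lists have medians of 1.98 and 2.88.

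Over the 14 RiboMinus libraries, the genes whose log2(RPKM + 1) followed the mean of Dlx1 to Dlx6 most closely were Emid2 (Pearson r = 0.993), Cacna1g (0.991), Brsk2 (0.989), Bai1 (0.988) and Dll1 (0.987). The points are repeated sequencing of 7 preparations from 2 tissues, so a high r mostly restates a difference between tissues, and the 100 closest genes all had r of 0.977 or more.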

How the data were processed

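The deposited files list, per library, the start, end and strand of each tag that the authors aligned uniquely to mm9 with Bowtie (up to 2 mismatches in 36 nt RiboMinus tags and 3 in 51 nt Ribo-Zero tags), after rRNA was removed, without splice junctions. Mitochondrial tags were removed from RiboMinus only and stayed in the Ribo-Zero totals (2363248 in CCE and 2200005 in FH). The score column that the authors deposited is constant and was not used, and the other values are tag positions. Of 24 samples, 16 libraries were used and 8 were not analysed here.

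Tags were assigned by midpoint to merged exons of GENCODE M1 genes (22380 protein-coding, 3845 noncoding), and counts per gene were scaled to RPKM over all unique tags. FH and CCE preparations were compared with limma (3.58.1, R 4.3.3, lmFit and eBayes with trend) on log2(RPKM + 1), with Benjamini-Hochberg adjustment over all genes tested. The fit was also run on simulated data with independent preparations, which cannot show its error rate where preparations share RNA. Spans were compared by an exact permutation test (scipy 1.17.1). Poisson and conditional binomial intervals (95%) cover counting error only, since tags carried no molecular identifiers.

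Tags across splice junctions are missing from the files, which lowers short exons, and repeated positions were kept. The genes named are the 7 members, the 3 highest and 3 lowest called genes of each list, the 5 genes most like the members and genes within the spans. Cryaa, Krt5, Myog, Col2a1 and Pou5f1 were named as tissue markers and A730090H04Rik for its overlap with Dlx4. Amelx, Enam and Dspp were named after their values were seen. The members and lists were chosen with earlier results of these data known. A few list symbols were matched through older names (such as Tcfap2c for Tfap2c), and 3 were not found. Alternatives covered the pseudocount, filter, scaling, voom, fragmentation, location, repeated positions, exon bases, a replicate block and each preparation left out.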

Additional observations from a re-analysis of the deposited data

Results flagged for a closer look

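Dlx3 and Dlx4 were each low in 1 CCE preparation. CCE2h had 1.01 RPKM of Dlx3 and 0.364 of Dlx4, and both values lay farther from the other 3 preparations than Dixon's 95% critical value allows. Without CCE2h the log2 difference of Dlx3 was 0.09 and that of Dlx4 was -0.27. Among single CCE libraries, Dlx5 in CCE2h at Vienna-IMP (0 RPKM) and Dlx6os1 in CCE1s at Vienna-IMP (0.319 RPKM, from 3 tags) were flagged in the same way. About 1 in 20 such groups is flagged by chance, and 24 groups were examined.

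FH tags continued past the annotated 3′ end of Dlx6os1, in a stretch of 50 kb with no annotated gene. In windows of 10 kb counted away from that end, FH RiboMinus held 1.27, 0.393, 0.111, 0.060 and 0.030 CPM per kb, and FH Ribo-Zero held 2.02, 0.262, 0.242, 0.221 and 0.235. RiboMinus fell from window to window, to 6 and 3 tags in the last pair, whereas Ribo-Zero stayed level from the second window on, with 107 and 114 tags in that pair. CCE held 0 or 1 tag in each window of either depletion. The first window was as dense in FH RiboMinus as the introns of Dlx6os1 (1.26 CPM per kb) and denser in FH Ribo-Zero (0.959 in the introns). These windows were chosen after the data were seen.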

How the results depend on the processing

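The 5 tested members were higher in FH, with a limma adjusted p under 0.05, under every alternative run with a test (largest adjusted p 0.00203, for Dlx5). Their log2 differences moved with the pseudocount and with voom, to 5.42 and 6.62 for Dlx6os1. Dlx4 moved to -0.35 with Nijmegen tags only. The replicate block left the calls of the members as they were (Dlx6os1 2.81) with 5323 genes called, against 5899 in the fit without it. Across tissues the preparation numbers only name samples: hydrolysed CCE and FH preparations of 1 number deviated oppositely (r = -0.13 across 10857 genes). Within CCE 1 number names 1 depleted RNA, and differences between numbers were also opposed in sheared and hydrolysed preparations (r = -0.14). A block with crossed numbers, chosen after seeing the data, called 5315. Genes called higher in FH numbered 2205, but 3312 with a filter at 1 RPKM and 4006 with none. Median-of-ratios scaling shifted the median log2 difference of all genes by 0.20 and changed the split from 2205 higher and 3694 lower to 2664 and 2667.

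List counts that moved by more than 1.5 times were small. Genes lower in FH in the subpallial list numbered 1 with Nijmegen tags or median-of-ratios scaling, 4 with a fragmentation term or hydrolysed preparations only, and 1 to 3 with 1 preparation left out. In the epidermal list they numbered 2 with hydrolysed preparations or distinct positions, and 1 to 2 with 1 left out. Trophoblast genes higher in FH numbered 1 with Nijmegen tags or hydrolysed preparations and 1 to 2 with 1 left out, and 5 were lower with either weaker filter. Primitive endoderm genes higher in FH numbered 2 with Vienna-IMP tags, a fragmentation term, hydrolysed preparations, voom or median-of-ratios scaling, and 1 to 2 with 1 left out. In the NK-like list 18 were higher with no filter, and 1 was lower with Nijmegen tags or median-of-ratios scaling (1 to 3 with 1 left out). Among the partners 1 was lower with tags of either location, crossed numbers, either block or median-of-ratios scaling, and 1 to 2 with 1 left out. The cause of these moves was not tested.

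With distinct positions only, the Ribo-Zero ratio of Dlx2 was 4.09, that of Dlx1 39.0 instead of 60.4 and that of Dlx6os1 220.2 instead of 415.4. Over coding bases, neighbouring levels in FH differed by -1.15 (Dlx2 minus Dlx1), 0.15 (Dlx5 minus Dlx6), 0.69 (Dlx6 minus Dlx3) and 1.55 (Dlx3 minus Dlx4). The 3 spans kept their direction under the RiboMinus alternatives run, but the Dlx3 to Dlx4 span had a ratio of 2.41 in RiboMinus and 0.384 in Ribo-Zero. Depth limits Dlx6os1 (4 CCE RiboMinus tags), the spans in CCE, Dlx6 (14 CCE RiboMinus tags) and Dlx4 (17 FH RiboMinus tags). Dlx5 had 0 tags in CCE Ribo-Zero.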
